A study of Mus musculus with 10 samples.

Results

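The 43 genes described here are mouse orthologs of genes from the distal long arm of human chromosome 3. They are the rows of a table of 24421 genes whose symbol stands on that list, from which the squamous regulators Trp63 and Sox2 and a few other genes had been left out. Of the 43, 22 lie on mouse chromosome 3 and 21 on mouse chromosome 16, and 39 (21 and 18) had enough counts to be tested among 13203 genes. They were measured by total RNA sequencing in 10 mouse libraries. The 5 normal lung libraries came from untreated mice and the 5 squamous cell carcinoma (SCC) libraries from lung tumours of mice given NTCU, a nitrosourea that induces such tumours. All mice were NIH Swiss and of the genotype labelled wt, and the labels state neither their age nor the dose. Regions were cut by laser from fixed, paraffin-embedded sections. No label says which animal a library came from, so p-values measure only the spread between these libraries, and they are too small if regions share an animal.

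Gain of the distal long arm of chromosome 3 is among the most frequent copy-number changes of human squamous cell carcinomas, of the lung and of other sites. The segment carries many genes at once, and several of them, such as those for the kinase PRKCI, the cytokinesis factor ECT2, the chromatin subunit ACTL6A, the RNA-binding protein FXR1 and the translocation protein SEC62, have been studied as drivers within it. In the mouse this human segment is broken into blocks on chromosomes 3 and 16, so a gain of one block need not carry the genes of the other. RNA levels do not measure copy number, which was not analysed here.

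The libraries held 1004105 to 6817106 counts. SCC 1, SCC 3 and SCC 4 stood apart by counts on chemosensory receptor genes, which lung hardly uses: 3.26, 3.30 and 3.52 counts per 1000000 (CPM) per kb of coding length, against 0.592 in SCC 2, 0.419 in SCC 5 and at most 0.207 in normal lung. Spread over all exons in proportion to length, this background would amount to 25.1%, 25.4% and 27.1% of the counts in these libraries, 4.55% in SCC 2, 3.22% in SCC 5 and at most 1.59% in normal lung. SCC 3 and SCC 4 had the lowest chi-square over its degrees of freedom of any pair of the same group (2.93, at least 11.5 elsewhere), a ratio that also grows with depth. Their Spearman correlation across genes was 0.920, against 0.748 to 0.868 for every other SCC pair, and that of normal 1 and normal 3 was 0.924. They still differed by more than sampling noise, where the ratio is near 1, and were counted as 2 samples. Fits with SCC 2 and SCC 5 alone and after subtraction of the estimated background are given beside the results where named. The labelled tissues carried their markers: 12 of 14 squamous and basal cell genes rose in SCC (summed level 178 to 355 CPM in normal lung, 1682 to 11466 CPM in SCC, with Krt6a, Krt13 and Dsg3 at 0 in every normal library). Of 14 alveolar epithelial genes 13 fell and 1 rose (9633 to 13298 CPM against 887 to 2171 CPM), and 13 of 14 endothelial genes fell (5097 to 7189 CPM against 456 to 807 CPM). Fewer cells of a type and less RNA per cell cannot be told apart in such regions.

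Few of the orthologs passed the test. With edgeR's quasi-likelihood test and Benjamini-Hochberg adjustment over all genes, 0 of the 39 tested members passed with a higher level in SCC and 1, Sec62, with a lower one. Among all 13203 genes, 12.5% passed as higher and 8.68% as lower. At an unadjusted p under 0.05, 5 members were higher (Ect2, Usp13, Fgf12, Ephb3, Senp5) and 5 lower (Sec62, Phc3, Gnb4, Mecom, Eif4a2), where 18.8% and 13.6% of all genes were. The DESeq2 Wald test with the same adjustment passed 4 members as higher (Ephb3, Fgf12, Usp13, Senp5) and 3 as lower (Sec62, Gnb4, Phc3), where 16.6% and 9.37% of all genes passed. Fgf12 and Usp13 met the count filter mainly through the SCC libraries, so their p-values are no support for a rise. The log2 fold change (SCC over normal lung, the scale of every change given below) was positive in 16 members and negative in 23, with a median of -0.12, against 0.074 over all genes. For no tested member did all 5 SCC libraries lie above all 5 normal libraries, and for 1, Phc3, they all lay below, where 8.81% and 5.77% of all tested genes did so.

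**Figure D1:**
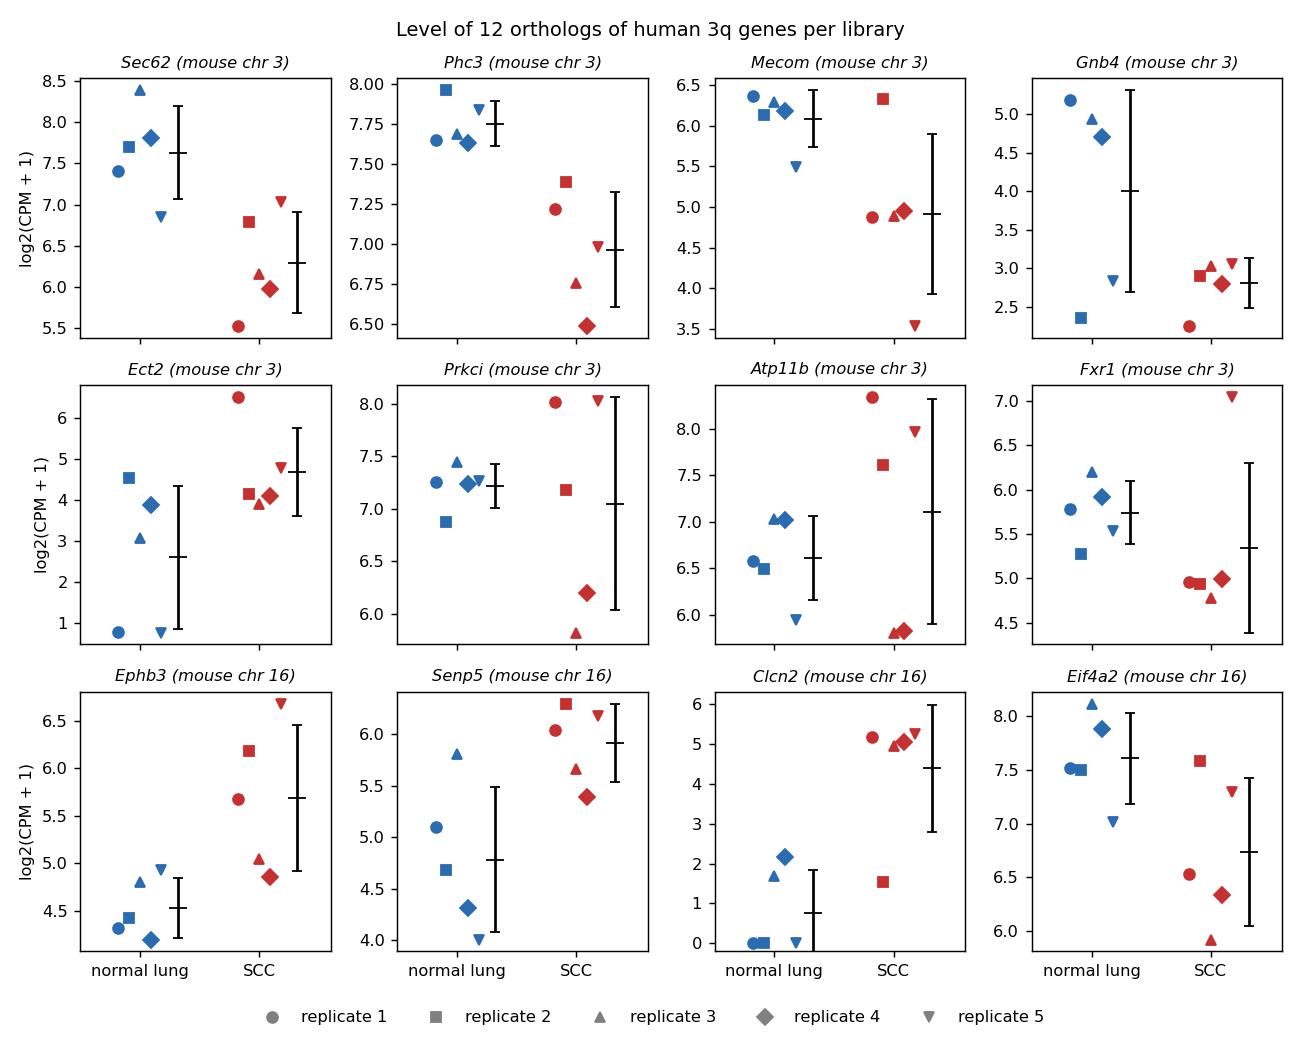
Level of 12 members in each library as log2(CPM + 1), with blue symbols for the 5 normal lung libraries, red symbols for the 5 SCC libraries, the symbol shape giving the replicate number, and a black dash with bars for the mean and SD. Sec62 and Phc3 are lower in SCC, with Phc3 groups that do not overlap, while Prkci and Atp11b spread in SCC from below to above the normal range.

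Sec62, a membrane protein of the endoplasmic reticulum that helps small secretory proteins through the translocation channel, was the member that fell. It stood at 168, 207, 333, 223 and 114 CPM in normal 1 to normal 5 and 45.3, 109, 70.5, 61.7 and 129.8 CPM in SCC 1 to SCC 5. Every SCC library but SCC 5 lay below the lowest normal library, normal 5, so the groups overlapped by that pair. The gene (ENSMUSG00000027706, mouse chromosome 3, 30792875 to 30821263, plus strand, GRCm38) had a log2 fold change of -1.42 (SE 0.39, adjusted p = 0.00977), with a 95% interval of -2.22 to -0.62. It passed in each of the 10 fits that left out 1 library (log2 fold change from -1.75 to -1.27) and after background subtraction (-1.19, adjusted p = 0.0349). With the receptor signal as a covariate, a fit in which 18 of the 39 members had the opposite sign, Sec62 was at 0.035 (adjusted p = 0.986). Receptor signal was at least 0.419 CPM per kb in every SCC library and at most 0.207 in every normal one. That fit therefore cannot separate tissue from background, and no conclusion is drawn from it. With SCC 2 and SCC 5 alone Sec62 was at -0.93 (adjusted p = 0.164), a fit in which 0 members passed as lower and 5.16% of all genes did. After background subtraction it was the 1 member of 35 tested that passed as lower, against 6.83% of all genes, and 0 passed as higher, against 8.04%.

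The rest of the protein translocation machinery gives the setting of that fall. Of 9 tested partners of Sec62 in the translocation channel and its accessory complexes, 0 rose and 3 fell, with a median of -0.42. Sec63, which works together with Sec62, was at -1.05 (SE 0.36, adjusted p = 0.04). Ssr1 and Ssr3, subunits of the translocon-associated complex, were at -1.21 (SE 0.36, adjusted p = 0.0154) and -1.43 (SE 0.39, adjusted p = 0.00923). Sec61a1, the pore subunit, chosen after its value was seen, was at 0.26 (SE 0.41, adjusted p = 0.715). None of the 9 passed in either direction with SCC 2 and SCC 5 alone, where their median was 0.18, and 2 (Ssr1, Ssr3) fell after subtraction; their summed level was lowest in SCC 4 and SCC 3 (425 and 446 CPM) against 913 to 1497 CPM in normal lung and 1238 CPM in SCC 5. Sec62 itself was below the normal range in SCC 2 as well. The alveolar and endothelial genes named above fell in the same comparison, and their part in the level of Sec62 was not tested.

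For the members on which the results turn, the promoter is shown as 300 bases of RefSeq sequence (GRCm38.p6), from 250 bases before to 50 after the annotated start, 5′ to 3′ on the strand of the gene. Capitals mark matches to 5 searched motifs on either strand: the E-box CACGTG, the GC box GGGCGG, the CCAAT box CCAAT, the AP-1 site TGANTCA and the cell cycle element TTTGAA, known as the CHR. Sec62 is shown as the member that fell, Ect2 as the cell cycle gene of the group, Ephb3 as the member that passed with SCC 2 and SCC 5 alone, and Clcn2 for its level near 0 in normal lung.
Sec62, chr3:30792626-30792925, plus strand: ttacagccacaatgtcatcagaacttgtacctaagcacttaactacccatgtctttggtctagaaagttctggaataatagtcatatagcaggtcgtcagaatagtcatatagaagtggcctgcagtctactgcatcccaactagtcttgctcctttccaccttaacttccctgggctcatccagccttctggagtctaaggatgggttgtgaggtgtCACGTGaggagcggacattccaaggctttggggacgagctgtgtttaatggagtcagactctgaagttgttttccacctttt
Ect2, chr3:27153829-27154128, minus strand: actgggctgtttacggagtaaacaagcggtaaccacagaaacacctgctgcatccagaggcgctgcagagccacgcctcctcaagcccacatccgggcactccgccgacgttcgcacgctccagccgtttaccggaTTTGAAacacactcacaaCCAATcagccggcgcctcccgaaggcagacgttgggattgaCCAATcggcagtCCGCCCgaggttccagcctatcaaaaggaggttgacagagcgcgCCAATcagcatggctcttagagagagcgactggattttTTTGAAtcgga
Ephb3, chr16:21204545-21204844, plus strand: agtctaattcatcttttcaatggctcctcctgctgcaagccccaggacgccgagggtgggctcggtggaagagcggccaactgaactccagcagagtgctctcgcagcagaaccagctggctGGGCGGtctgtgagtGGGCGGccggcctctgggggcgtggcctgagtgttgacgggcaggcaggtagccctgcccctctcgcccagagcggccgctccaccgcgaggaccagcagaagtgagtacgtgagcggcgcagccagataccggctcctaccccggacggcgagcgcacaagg
Clcn2, chr16:20716587-20716886, minus strand: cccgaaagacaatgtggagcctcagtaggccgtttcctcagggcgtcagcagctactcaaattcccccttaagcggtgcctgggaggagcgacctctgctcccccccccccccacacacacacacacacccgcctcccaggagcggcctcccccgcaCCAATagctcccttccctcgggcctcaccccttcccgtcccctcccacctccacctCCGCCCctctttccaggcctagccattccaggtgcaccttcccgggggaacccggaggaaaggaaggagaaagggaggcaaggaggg
The Sec62 promoter holds 1 E-box, which 7.15% of the 32851 mouse promoters of this length hold. Ect2 holds 2 matches to the CHR, 3 CCAAT boxes and 1 GC box, Ephb3 holds 2 GC boxes, and Clcn2 holds 1 CCAAT box and 1 GC box. Of the 37 members with a promoter in the table, 29 hold a GC box in at least 1 promoter (35.7% of all promoters), 13 a CCAAT box (37.4%), 6 an E-box, 4 a CHR (17.9%) and 1 an AP-1 site (7.81%). Members with several promoters count once, so these shares are not like for like, and a match is a description of letters only.

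Among the 11 signalling members, all of which were tested, 0 passed in either direction, with a median of -0.015. Prkci, the atypical protein kinase C of the polarity complex, stood at 152, 116, 174, 149 and 152 CPM in normal 1 to normal 5 and 257, 144, 55.6, 72.7 and 258 CPM in SCC 1 to SCC 5. SCC 1 and SCC 5 were above every normal library and SCC 3 and SCC 4 below every one, and the log2 fold change was -0.015 (SE 0.41, adjusted p = 0.986), with an interval of -0.85 to 0.82. Of 9 tested partners of Prkci in cell polarity, 0 rose and 1 fell, the scaffold gene Mpp5, at -0.96 (SE 0.34, adjusted p = 0.0456). Mpp5 did not pass with SCC 2 and SCC 5 alone (-0.70, adjusted p = 0.315) or after subtraction (-0.91, adjusted p = 0.0854).

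Ect2, the exchange factor that switches on RhoA at the division plane, stood at 0.716, 21.9, 7.33, 13.5 and 0.686 CPM in normal 1 to normal 5 and 89.6, 16.5, 13.8, 15.9 and 26.1 CPM in SCC 1 to SCC 5. Its counts were scarce in normal lung, with normal 1 and normal 5 under 1 CPM, and SCC 1 and SCC 5 were above every normal library. Its log2 fold change was 1.72 (SE 0.77, adjusted p = 0.119) and dropped to 0.89 without SCC 1. Genes that act with Ect2 in cytokinesis did pass: of 8 tested, 5 rose and 0 fell, with a median of 2.32. Prc1, which bundles the central spindle, was at 2.69 (SE 0.50, adjusted p = 0.000327), the kinase gene Plk1 at 3.21 (SE 0.77, adjusted p = 0.00326) and Racgap1, the direct partner of Ect2, at 2.58 (SE 0.60, adjusted p = 0.00273); Anln and Kif20a were at 2.51 and 2.14. With SCC 2 and SCC 5 alone 3 of the 8 rose, and 3 of 8 after subtraction. Prc1, Plk1 and Kif20a are also among the proliferation genes, of which 15 of 23 rose and 0 fell, with a summed level of 164 to 229 CPM in normal lung and 616 to 1495 CPM in SCC. Of the proliferation genes 8 of 24 rose with SCC 2 and SCC 5 alone and 9 of 19 after subtraction. Their part in the level of Ect2 was not tested.

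Ephb3, a receptor tyrosine kinase for ephrin-B ligands, came closest to the threshold among members with higher levels. It stood at 18.97, 20.5, 26.8, 17.4 and 29.5 CPM in normal 1 to normal 5 and 49.97, 71.8, 31.9, 27.9 and 101 CPM in SCC 1 to SCC 5. In CPM, SCC 1, SCC 2, SCC 3 and SCC 5 were above every normal library, SCC 3 by the least, and SCC 4 lay within the normal range. After TMM scaling 3 SCC libraries were above, SCC 3 no longer among them. SCC over normal lung gave a log2 fold change of 1.23 (SE 0.45, adjusted p = 0.0511). With SCC 2 and SCC 5 alone it rose by 1.83 (SE 0.48, adjusted p = 0.0174), the 1 member of 40 tested to pass as higher there, against 4.14% of all genes. After background subtraction it was at 1.16 (adjusted p = 0.197).

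Several signalling members of low level were high in the libraries of high receptor signal. Fgf12, an intracellular growth factor homolog that binds sodium channels, stood at 2.15, 15.7, 6.601, 3.09 and 4.12 CPM in normal 1 to normal 5 and 27.3, 5.69, 28.6, 52.8 and 7.35 CPM in SCC 1 to SCC 5. Only SCC 1, SCC 3 and SCC 4 lay above the normal range. Its log2 fold change was 1.80 (SE 0.75, adjusted p = 0.0915), and -0.072 with SCC 2 and SCC 5 alone. Map3k13, a kinase upstream of JNK, stood at 6.44, 5.47, 14.96, 30.5 and 8.23 CPM in normal 1 to normal 5 and 47.1, 11.1, 55.6, 48.8 and 12.2 CPM in SCC 1 to SCC 5 and had the same 3 libraries above the normal range. Map3k13 had a log2 fold change of 1.24 (SE 0.61, adjusted p = 0.158), and -0.33 with SCC 2 and SCC 5 alone. Background was estimated at 53.4% of the counts of Fgf12 in SCC and at 52.1% of those of Map3k13. Gpr160, an orphan receptor, ranged over 0.358 to 5.72 CPM in normal lung and 4.88 to 19.9 CPM in SCC, with a log2 fold change of 1.78 (SE 0.90, adjusted p = 0.171) and a background share of 46.6%.

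Gnb4, a beta subunit of heterotrimeric G proteins, stood at 35.4, 4.101, 29.8, 25.1 and 6.17 CPM in normal 1 to normal 5 and 3.77, 6.501, 7.16, 5.98 and 7.35 CPM in SCC 1 to SCC 5. Normal lung was split, with normal 1, normal 3 and normal 4 above 25 CPM and normal 2 and normal 5 at the SCC level. Its log2 fold change was -1.78 (SE 0.70, adjusted p = 0.0727), and its estimated background exceeded its SCC counts (156%), which a rate averaged over many genes can do. Pak2, a kinase activated by Rac and Cdc42, stood at 162, 122, 184, 116 and 163 CPM in normal 1 to normal 5 and 69.8, 133, 54.5, 60.8 and 178 CPM in SCC 1 to SCC 5, with SCC 1, SCC 3 and SCC 4 below every normal library in CPM and SCC 2 and SCC 5 within the normal range. After TMM scaling 4 SCC libraries were below and 1, SCC 5, above. Its log2 fold change was -0.68 (SE 0.38, adjusted p = 0.229). Skil, a repressor of TGF-beta signalling, Dvl3, a transducer of Wnt signals, and Dlg1, a polarity scaffold, had log2 fold changes of -0.22, -0.058 and -0.41, with adjusted p from 0.532 to 0.937.

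The 6 members that act in transcription and chromatin gave 0 calls, with a median of -0.22. Phc3, a subunit of Polycomb repressive complex 1, stood at 199, 248, 205, 197 and 228 CPM in normal 1 to normal 5 and 148, 166, 107, 88.6 and 125 CPM in SCC 1 to SCC 5. The highest SCC library, SCC 2, was below the lowest normal library, normal 4. SCC over normal lung gave a log2 fold change of -0.89 (SE 0.34, adjusted p = 0.0637), with an interval of -1.59 to -0.19; it passed without SCC 2 and without SCC 5. Mecom, a zinc finger transcription factor known from blood stem cells, stood at 81.2, 69.04, 77.5, 71.4 and 43.9 CPM in normal 1 to normal 5 and 28.3, 79.6, 28.6, 29.9 and 10.6 CPM in SCC 1 to SCC 5. SCC 2 was as high as normal lung and the other SCC libraries were below every normal library, with a log2 fold change of -1.09 (SE 0.44, adjusted p = 0.078); it was at -1.65 without SCC 2 (adjusted p = 0.00694).

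Actl6a, an actin-related subunit of SWI/SNF complexes that is known to hold back epithelial differentiation, stood at 13.2, 17.8, 14.8, 19.7 and 6.86 CPM in normal 1 to normal 5 and 16.03, 13.00, 9.36, 13.9 and 62.5 CPM in SCC 1 to SCC 5. SCC 5 alone was above the normal range. Actl6a had a log2 fold change of 0.60 (SE 0.62, adjusted p = 0.551), and -0.34 without SCC 5. Tbl1xr1, a subunit of nuclear corepressor complexes, stood at 168, 122, 171, 157 and 207 CPM in normal 1 to normal 5 and 153, 229, 90.3, 80.7 and 236 CPM in SCC 1 to SCC 5, with SCC 3 and SCC 4 below every normal library and, in CPM, SCC 2 and SCC 5 above. After TMM scaling SCC 5 was the 1 library above, and the log2 fold change was -0.17 (SE 0.37, adjusted p = 0.802). Bcl6, a repressor of germinal centre B cells, and Zmat3, an RNA-binding target of p53, were at 0.017 and -0.26, with adjusted p of 0.984 and 0.7.

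The 7 members that act on RNA and translation likewise gave 0 calls, with a median of -0.17. Eif4g1, the scaffold of the cap-binding complex, stood at 268, 216, 376, 198 and 169 CPM in normal 1 to normal 5 and 113, 355, 147, 132 and 319.7 CPM in SCC 1 to SCC 5. SCC 1, SCC 3 and SCC 4 were below every normal library and SCC 2 and SCC 5 within the normal range, with a log2 fold change of -0.29 (SE 0.39, adjusted p = 0.659). Eif4a2, a helicase of the same complex, stood at 183, 180.5, 277, 235 and 128 CPM in normal 1 to normal 5 and 91.4, 191, 59.4, 79.7 and 156 CPM in SCC 1 to SCC 5, where the same 3 libraries were below every normal library. Its log2 fold change was -0.91 (SE 0.38, adjusted p = 0.0955), and -0.35 with SCC 2 and SCC 5 alone. Reads of Eif4a2 can also come from 2 small nucleolar RNA genes within it and from Rfc4, which overlaps its end. Of 14 tested initiation factors and direct partners that are not members, 0 passed in either direction, with a median of 0.41 and 1 in each direction at an unadjusted p under 0.05. With SCC 2 and SCC 5 alone 2 of them rose.

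Fxr1, an RNA-binding relative of the fragile X protein, stood at 54.05, 37.6, 72.8, 59.4 and 45.3 CPM in normal 1 to normal 5 and 30.2, 29.5, 26.4, 30.9 and 131 CPM in SCC 1 to SCC 5. SCC 5 was the highest of the 10 libraries and the other SCC libraries were below every normal library. Fxr1 had a log2 fold change of -0.17 (SE 0.46, adjusted p = 0.838). Eif2b5, a subunit of the exchange factor for eIF2, ranged over 6.17 to 51.05 CPM in normal lung and 14.1 to 67.4 CPM in SCC and differed by 0.62 (SE 0.54, adjusted p = 0.46) on the log2 scale. Abcf3, Ncbp2 (the small cap-binding subunit) and Ttc14 were at -0.12, 0.0074 and -0.44, each with an adjusted p of 0.441 or more. Ncbp2 overlaps Senp5 and Ttc14 overlaps Ccdc39 on the opposite strand, and the sources used here do not give the strand setting of the counting.

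Of the 7 members for protein turnover and translocation, 6 were tested, and Sec62 was the 1 that passed. Psmd2, a base subunit of the proteasome's regulatory particle, stood at 49.8, 66.99, 142, 42.8 and 62.4 CPM in normal 1 to normal 5 and 35.8, 113, 63.9, 77.7 and 117 CPM in SCC 1 to SCC 5. SCC 1 was below every normal library and the rest within the normal range, with a log2 fold change of 0.072 (SE 0.40, adjusted p = 0.925). Of 17 other tested genes of the proteasome's regulatory particle, 0 passed in either direction, 0 also at an unadjusted p under 0.05, and 0 with SCC 2 and SCC 5 alone, and their median was -0.22. Dcun1d1, which promotes neddylation of cullins, stood at 56.9, 32.8, 69.7, 69.8 and 25.4 CPM in normal 1 to normal 5 and 59.4, 63.1, 42.4, 28.9 and 57.2 CPM in SCC 1 to SCC 5, with a log2 fold change of -0.13 (SE 0.40, adjusted p = 0.857).

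Usp13, a deubiquitinase, had the largest log2 fold change of the tested members and rested on few reads in normal lung. It stood at 1.79, 0.684, 8.801, 3.09 and 2.06 CPM in normal 1 to normal 5 and 48.1, 1.896, 15.4, 20.9 and 6.53 CPM in SCC 1 to SCC 5. SCC 1, SCC 3 and SCC 4 were above every normal library, SCC 2 and SCC 5 were not, and background was estimated at 99.8% of its counts in SCC. Usp13 had a log2 fold change of 2.28 (SE 0.87, adjusted p = 0.0628), and 0.22 with SCC 2 and SCC 5 alone. Senp5, a SUMO protease, stood at 33.3, 24.6, 55.01, 18.9 and 15.1 CPM in normal 1 to normal 5 and 65.05, 77.5, 49.5, 40.8 and 71.5 CPM in SCC 1 to SCC 5. SCC 1, SCC 2 and SCC 5 were above every normal library and the log2 fold change was 0.95 (SE 0.42, adjusted p = 0.114), 1.21 with SCC 2 and SCC 5 alone and 0.98 after subtraction, neither of which passed. Senp2, the related protease, was at -0.49 (SE 0.36, adjusted p = 0.382).

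The 5 mitochondrial members gave 0 calls, with a median of -0.41 and wide errors. Mfn1, an outer membrane fusion protein, ranged over 14.4 to 54.4 CPM in normal lung and 11.02 to 31.1 CPM in SCC, with a log2 fold change of -0.78 (SE 0.49, adjusted p = 0.282). Ndufb5 (complex I), Mrpl47 (mitochondrial ribosome), Dnajc19 (protein import) and Mccc1 (leucine breakdown) were at -0.41, 1.55, -0.55 and 0.27, with adjusted p from 0.291 to 0.827. Mrpl47 overlaps both Actl6a and Ndufb5, and Dnajc19 overlaps Fxr1, each on the opposite strand.

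Of the 6 members for membrane transport and adhesion, 4 were tested and 0 passed. Atp11b, a phospholipid flippase, stood at 94.9, 88.9, 129.8, 128 and 60.4 CPM in normal 1 to normal 5 and 323, 194, 55.05, 55.8 and 249 CPM in SCC 1 to SCC 5. SCC 1, SCC 2 and SCC 5 were above every normal library and SCC 3 and SCC 4 below every one, with a log2 fold change of 0.69 (SE 0.44, adjusted p = 0.294). Tfrc, the transferrin receptor that brings iron into dividing cells, stood at 95.9, 40.3, 121, 67.5 and 46.7 CPM in normal 1 to normal 5 and 56.6, 43.6, 22.6, 21.9 and 90.2 CPM in SCC 1 to SCC 5. SCC 3 and SCC 4 were the lowest of all, with a log2 fold change of -0.73 (SE 0.44, adjusted p = 0.257), and of 10 tested iron genes 0 rose and 1 fell, the reductase gene Steap3, at -1.67 (SE 0.51, adjusted p = 0.0191). Steap3 was at -1.83 with SCC 2 and SCC 5 alone (adjusted p = 0.0950), where 0 of the 10 passed, and at -2.72 after subtraction (adjusted p = 0.0363). Ap2m1, an adaptor of clathrin-coated pits, and Lpp, a focal adhesion protein, were at 0.29 and -0.11, with adjusted p of 0.641 and 0.872.

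The 4 members without enough counts for the test were Clcn2, Ece2, Rfc4 and Kcnmb3. Clcn2, a chloride channel of epithelia, stood at 0, 0, 2.200, 3.47 and 0 CPM in normal 1 to normal 5 and 34.9, 1.896, 29.7, 31.9 and 37.2 CPM in SCC 1 to SCC 5. SCC 1, SCC 3, SCC 4 and SCC 5 were far above the normal libraries, of which 3 had 0 counts, while SCC 2 lay within their range. Clcn2 overlaps Fam131a and Polr2h on the opposite strand, so reads of these genes may be among its counts, and the estimated background was 22.9% of its SCC counts.

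Ece2, an endothelin-converting enzyme relative, stood at 1.43, 0, 2.200, 0.386 and 1.37 CPM in normal 1 to normal 5 and 2.83, 4.33, 18.2, 16.9 and 5.31 CPM in SCC 1 to SCC 5, with every SCC library above every normal one, at 3 to 33 counts per SCC library. Its background share was 66.5%. Under a filter of 1 CPM in 5 libraries, which left 17275 genes, Clcn2 and Ece2 were the 2 members called higher and Sec62 the 1 called lower, where 20.6% and 6.63% of genes were. Clcn2 and Ece2 met that filter only through the SCC libraries, so their calls are no support for a rise. Rfc4, a subunit of the clamp loader of DNA replication, had 60 of its 70 normal counts in normal 4 and 26 counts over the SCC libraries. It overlaps Eif4a2, and of 6 other tested genes of the clamp, its loader and their polymerases 1, Pole, rose, at 2.45 (SE 0.64, adjusted p = 0.00681). Pole did not pass with SCC 2 and SCC 5 alone (2.07, adjusted p = 0.150) or after subtraction (2.23, adjusted p = 0.150). Kcnmb3, a potassium channel subunit, had 0 counts in normal lung and 10 over the SCC libraries, 7 of them in SCC 3, which is below its estimated background.

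**Figure D2:**
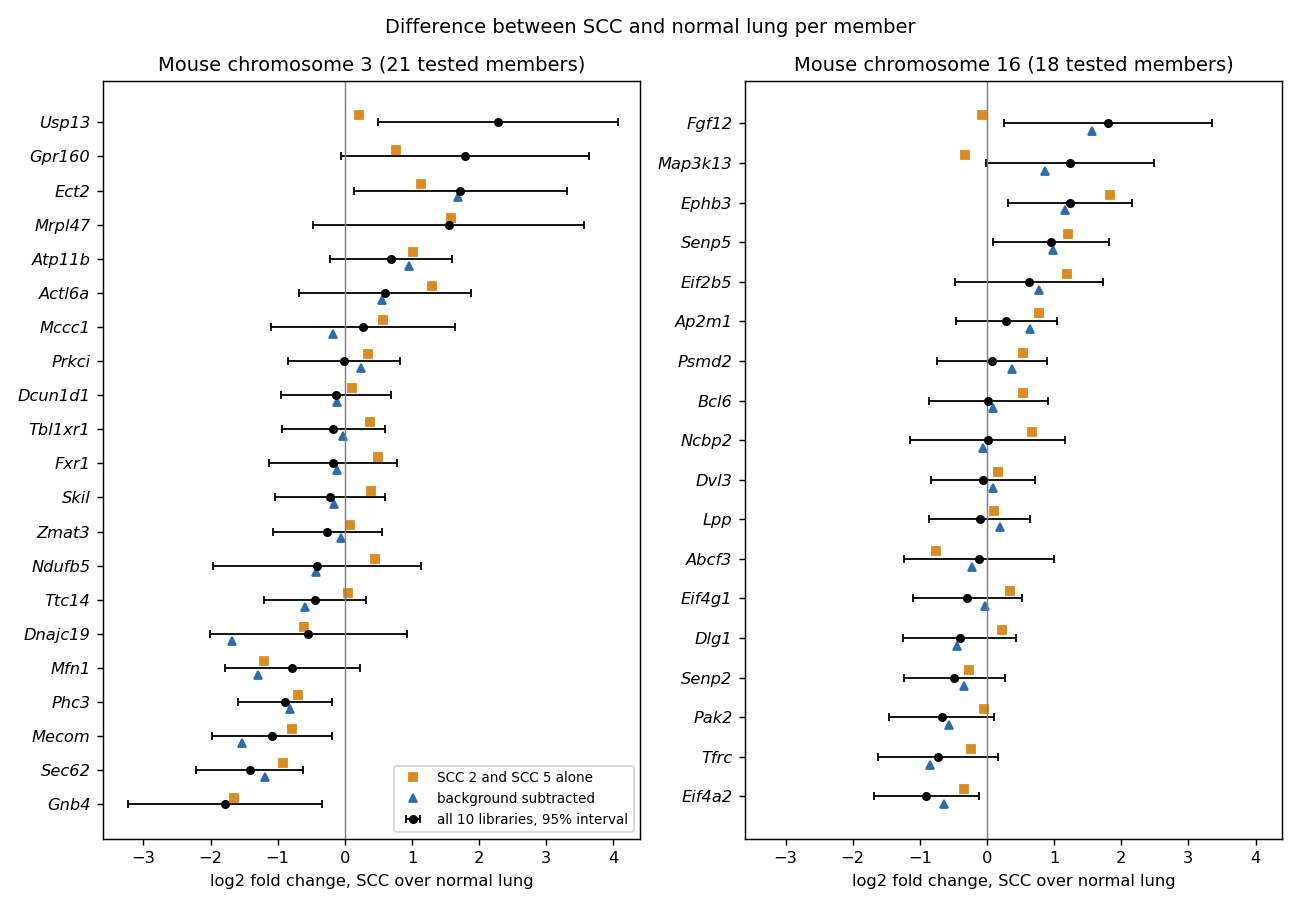
Log2 fold change of SCC over normal lung for the 39 tested members, ordered by size within each mouse chromosome. Black points with bars give the fit with all 10 libraries and its 95% interval, orange squares the fit with SCC 2 and SCC 5 alone and blue triangles the fit after background subtraction, where available. For 14 members the orange square lies on the other side of 0 from the black point.

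The width of the intervals differed between members. For 13 of the 39, 7 on chromosome 3 and 6 on chromosome 16, the 95% interval ended below 0.58, the log2 of a 1.5-fold higher level. They were Mecom, Sec62, Phc3, Zmat3, Mfn1, Gnb4 and Ttc14, and Eif4g1, Senp2, Eif4a2, Dlg1, Pak2 and Tfrc. For the other 26 the interval held that value, and for 0 it lay wholly above. The interval reached 0.70 to 2.02 to either side, with a median of 0.90. A rise of only 1.5-fold was thus not detectable for any tested member at this depth and spread between libraries. The intervals hold for all 10 libraries as deposited, and with SCC 2 and SCC 5 alone 14 of the 39 members had the opposite sign. In that fit the upper ends for Zmat3, Ttc14, Eif4g1, Senp2, Dlg1, Pak2 and Tfrc were 0.62 to 1.03, no longer below 0.58. Those for Mecom, Sec62, Phc3, Mfn1, Gnb4 and Eif4a2 stayed below it. After subtraction the upper ends for Zmat3, Eif4g1 and Dlg1 were 0.74, 0.69 and 0.75, and Gnb4 was not tested.

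The medians on the 2 mouse chromosomes differed by less than the spread between SCC libraries. The 21 on chromosome 3 had a median log2 fold change of -0.17, with 7 positive, 14 negative, 0 called higher and 1 called lower. The 18 on chromosome 16 had a median of -0.025, with 9 positive, 9 negative and 0 calls. The difference of the medians was -0.15, less than its SD of 0.28 over the 5 SCC libraries, and 0.12 with SCC 2 and SCC 5 alone. Over all tested genes of each chromosome, 14.4% of 627 on chromosome 3 and 14.5% of 401 on chromosome 16 passed as higher, and 9.73% and 7.98% as lower.

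The SCC libraries had the same order in both blocks. The median of log2 CPM minus the normal mean was -0.38, 0.037, -1.03, -0.99 and 0.52 for chromosome 3 members in SCC 1 to SCC 5. For chromosome 16 members it was -0.39, 0.16, -0.55, -0.51 and 0.40. Both were lowest in SCC 3 and SCC 4 and highest in SCC 5. After TMM scaling, 16 of the 39 tested members (41.0%) were above every normal library in SCC 5 and 6 (15.4%) below, where 27.9% and 25.3% of all tested genes were. In SCC 3, 4 (10.3%) were above and 21 (53.8%) below, where the shares of all genes were 27.9% and 27.6%. In SCC 4, 12.8% were above and 48.7% below, against 27.9% and 28.9%. The summed level of all 43 members ran from 2837 to 3888 CPM in normal lung and was 3098, 3766, 2006, 2151 and 4197 CPM in SCC 1 to SCC 5. Summed initiation factors (1126 and 1138 CPM in SCC 3 and SCC 4, 2920 CPM in SCC 5) were likewise lowest in SCC 3 and SCC 4 and highest in SCC 5. So were the partners of Sec62 (446, 425 and 1238 CPM) and paralogs of the members (904, 767 and 2077 CPM). The other proteasome genes were nearly level in SCC 1, SCC 3 and SCC 4 (461, 463 and 467 CPM) and highest in SCC 5 (923 CPM). Not every list had that order, as summed proliferation genes were lowest in SCC 2 (616 CPM) and highest in SCC 4 (1495 CPM). Estimated background was 25.4%, 27.1% and 3.22% in SCC 3, SCC 4 and SCC 5. Its part in the order of the SCC libraries was not tested.

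**Figure D3:**
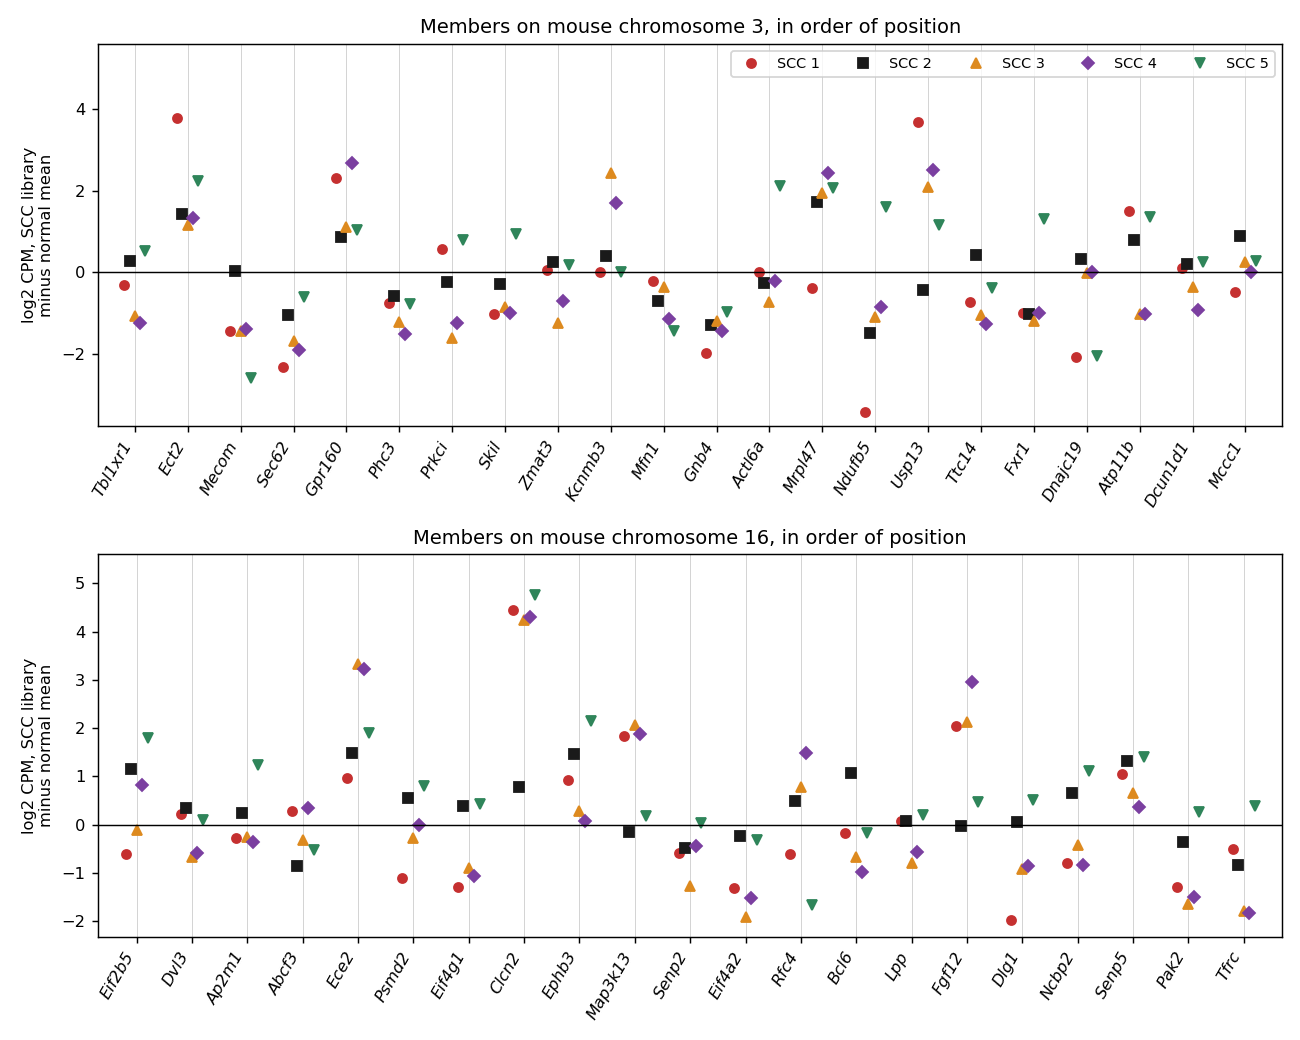
Log2 CPM of each SCC library minus the mean of the 5 normal libraries, for the 22 members on mouse chromosome 3 (top) and the 21 on chromosome 16 (bottom), in order of position and evenly spaced, with 1 symbol and colour per SCC library. SCC 5 (green) tends to lie above and SCC 3 and SCC 4 (orange, purple) below the line at 0 on both chromosomes, and Ect2, Gpr160, Ece2, Clcn2, Ephb3 and Senp5 are above 0 in all 5 SCC libraries, Sec62, Phc3, Mfn1, Gnb4 and Eif4a2 below. Levels carry a prior count, so Kcnmb3, with 0 counts in all normal libraries, in SCC 1 and in SCC 5, is drawn near 0 there.

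The estimated background was largest where levels were low. Relative to SCC counts it ranged from 2.14% (Ap2m1) to 156% (Gnb4) among tested members. Members with positive log2 fold changes above 1.2 included Usp13 (99.8%), Mrpl47 (75.7%), Fgf12 (53.4%), Map3k13 (52.1%) and Gpr160 (46.6%), but also Ect2 (25.5%) and Ephb3 (14.2%). Usp13, Mrpl47, Gpr160 and Gnb4 no longer had enough counts for the test after subtraction. Sec62 (6.69%) and Eif4a2 (3.78%) had small shares.

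**Figure D4:**
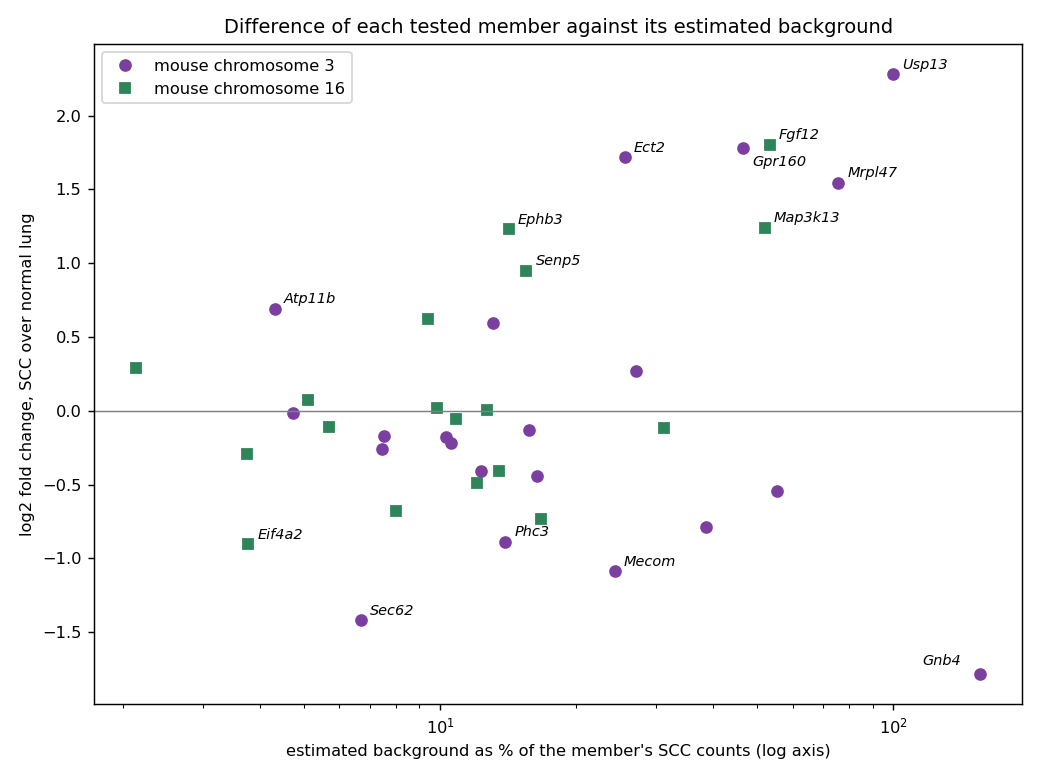
Log2 fold change of each of the 39 tested members against its estimated background as a percentage of its SCC counts, on a log axis, with purple circles for mouse chromosome 3 and green squares for chromosome 16. Of the members above 1.2, all but Ect2 and Ephb3 have a background share above 40%.

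Levels per length put the members in order of abundance. In normal lung the highest mean levels were those of Eif4a2 (62.8 CPM per kb of exon), Sec62 (52.7), Ap2m1 (52.5) and Eif4g1 (40.6), and Kcnmb3 was at 0. In SCC the highest were Ap2m1 (68.7 CPM per kb), Eif4a2 (36.1), Atp11b (36.1), Eif4g1 (35.3) and Prkci (33.5). Sec62 was at 21.01 CPM per kb in SCC.

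Genes of the human segment outside the 43 included several that passed. Of 108 further orthologs of genes on the human segment, 105 were in the table and 68 were tested. Of these 8 rose and 5 fell, 11.8% and 7.35%, near the shares of all genes, with a median of 0.12. On chromosome 16, 7 of 54 rose and 4 fell, and on chromosome 3, 1 of 14 rose and 1 fell. Muc4, a membrane mucin, ranged over 79.9 to 259 CPM in normal lung and 438 to 1185 CPM in SCC and rose by 2.31 (SE 0.44, adjusted p = 0.000393). Muc20, its neighbour, rose by 2.19 (SE 0.49, adjusted p = 0.00203) and Slc7a14, an amino acid transporter relative on chromosome 3, by 2.88 (SE 0.48, adjusted p = 0.000101). Hrg, Thpo and Fetub, which encode secreted plasma proteins, had log2 fold changes of 4.69, 3.80 and 3.75, and Bdh1 and Mb21d2 of 2.97 and 1.86. Those that fell were Lamp3, of lamellar bodies of alveolar type 2 cells, at -3.63 (SE 0.41, adjusted p = 7.48e-07), Etv5, a transcription factor of the same cells, at -1.62 (SE 0.37, adjusted p = 0.00222), and Ccdc50, Nceh1 and Klhl24 at -1.43, -1.18 and -1.08. The changes of Hrg, Thpo, Fetub, Bdh1 and Mb21d2 are those of all 10 libraries as deposited. Estimated background was 25.1%, 25.4% and 27.1% of the counts in SCC 1, SCC 3 and SCC 4. The levels and background shares of these 5 genes are not given here, so no induction in SCC is drawn from their changes. With SCC 2 and SCC 5 alone 3 of 77 further orthologs rose and 4 fell, where 4.14% and 5.16% of all genes did. After subtraction 7 of 56 rose and 4 fell, where 8.04% and 6.83% of all genes did. These counts are not matched here to the genes named above.

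Paralogs of the members gave 1 higher and 1 lower of 19 tested, where 12.5% and 8.68% of all genes passed, with a median of -0.11. Pak3, a relative of Pak2, was at 2.92 (SE 0.92, adjusted p = 0.0237) with a background share of 84.4%, and Fmr1, the fragile X gene related to Fxr1, at -1.10 (SE 0.39, adjusted p = 0.0467). Among these paralogs 1 of 19 (Eif4a1) was higher and 0 lower with SCC 2 and SCC 5 alone, where 4.14% and 5.16% of all genes were. After subtraction 0 of 18 passed in either direction, where 8.04% of all genes passed as higher and 6.83% as lower. The stretch of chromosome 3 between its first and last member held 17 other tested genes, of which 3 rose, among them Sox2 and the overlapping transcript Sox2ot, and 1 fell. The stretch of chromosome 16 held 57, of which 9 (15.8%) rose, Trp63 among them, and 2 (3.51%) fell. Among all tested genes 12.5% rose and 8.68% fell, so no trait of these stretches is drawn from the counts. With SCC 2 and SCC 5 alone 1 rose and 4 fell of 22 on chromosome 3, and 2 rose and 1 fell of 65 on chromosome 16. Of all genes 4.14% rose and 5.16% fell in that fit.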

How the data were processed

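The deposited table holds whole-number counts per gene symbol, which the authors did not normalise. Per the submitters' processing notes, the genome build was mm10, and the tools named are DESeq2, HTSeq 0.6.1, TopHat2 2.0.1 and cutadapt 1.9.1. The sources used here give neither annotation nor strand setting. In R 4.3.3, genes were filtered with filterByExpr, scaled by TMM and tested with edgeR 4.0.16 (quasi-likelihood, robust, no covariate), with adjustment over 13203 genes and a threshold of 0.05. Values per library are CPM of total counts, and a single gene's libraries are called above or below normal lung on these unless TMM scaling is named. Shares of genes above or below in a library use log2 CPM with a prior count of 2 after TMM scaling. Lengths and positions came from GENCODE M21 basic annotation (GRCm38), which matched all but 388 of 24421 genes, 657 of them by an older symbol. The background is the count per kb on 1454 receptor genes (highest values set to the 98th percentile) times exon length. Intervals of fits cover the spread between libraries, and counts carry counting error too.

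The 43 members and all lists were chosen with earlier results of these data known. Of the members, Sec62, Ephb3, the 3 largest rises and falls per chromosome, and Prkci, Ect2, Actl6a, Fxr1, Dcun1d1, Tbl1xr1, Eif4g1, Psmd2 and Tfrc were named by a rule, and from the lists the called genes, at most 3 of them in full. The others are described to account for every member. Alternatives were DESeq2 1.42.0 size factors or Wald test, other filters, SCC 2 and SCC 5 alone, subtraction of the background, the receptor signal as a covariate, and leaving out each library. The test was also run on simulated counts. The outcome of that run is not given here, so no support for the calls is drawn from it.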

Additional observations from a re-analysis of the deposited data

Results flagged for a closer look

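In 8 of 85 groups of 5 libraries, 1 library lay far from the others by Dixon's criterion (gap over range above 0.71). The criterion assumes independent, normally distributed values. These groups share libraries and some hold CPM near 0, so the count of groups is a description only. SCC 5 had 62.5 CPM of Actl6a (9.36 to 16.03 CPM in the other SCC libraries) and 131 CPM of Fxr1 (26.4 to 30.9 CPM). SCC 2 had 1.896 CPM of Clcn2 (29.7 to 37.2 CPM) and SCC 1 had 0.943 CPM of Mrpl47 (6.77 to 11.95 CPM). Normal 5 had 43.9 CPM of Mecom (69.0 to 81.2 CPM in the other normal libraries) and 56.9 CPM of Skil (108 to 114 CPM). Normal 2 had 46.5 CPM of Dlg1 (90.3 to 116 CPM). Normal 4 had 23.1 CPM of Rfc4 (0 to 1.17 CPM). The causes were not tested.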

How the results depend on the processing

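Depth, spread between libraries and 5 libraries a group limit the precision for single members, and the labels give no shared replicate numbers. The comparison is unpaired, because normal lung came from untreated mice and SCC from mice given NTCU. Tumour and NTCU exposure cannot be told apart in it. Genes called higher numbered 3551 with a filter of 1 CPM in 5 libraries, 5470 with no filter, 592 with SCC 2 and SCC 5 alone, 926 after background subtraction and 466 with the receptor signal as a covariate, against 1645. Genes called lower numbered 2072, 738 and 371 with no filter, SCC 2 and SCC 5 alone and the covariate, against 1146. DESeq2 size factors gave 1769 genes called higher and 1018 called lower. With 1 library left out, 1304 to 2207 genes were called higher and 1009 to 1473 lower. Members called higher numbered 2 with the 1 CPM filter (Clcn2, Ece2), 4 with the DESeq2 Wald test, 2 with DESeq2 size factors (Ephb3, Usp13), 1 with SCC 2 and SCC 5 alone (Ephb3), 2 with no filter (Clcn2, Kcnmb3) and 1 with the covariate (Eif2b5), against 0, and from 0 to 3 when 1 library was left out. Members called lower numbered 3 with the Wald test, 0 with SCC 2 and SCC 5 alone, 5 with no filter (Sec62, Phc3, Gnb4, Mecom, Eif4a2) and 0 with the covariate, against 1, and from 1 to 6 when 1 library was left out. Without SCC 5 the called members were Fgf12 and Usp13 (higher) and Sec62, Pak2, Phc3, Eif4a2, Fxr1 and Tfrc (lower), and without SCC 2 they were Fgf12, Usp13 and Clcn2 (higher) and Sec62, Phc3, Mecom and Eif4a2 (lower). Over all genes 1973 were called higher and 1473 lower without SCC 5, and 1851 and 1307 without SCC 2. Without normal 2 the called members were Gnb4, Fgf12, Sec62 and Clcn2, without normal 5 Gnb4, Mecom, Sec62 and Clcn2, without normal 3 Usp13, Sec62 and Clcn2, without normal 1 or normal 4 Sec62 and Clcn2, and without SCC 1 Sec62 and Ece2. Clcn2 and Ece2 met the filter of these fits only through SCC libraries, and Fgf12 and Usp13 mainly through them, so their calls are no support for a rise. Kcnmb3, called higher with no filter, had 0 counts in normal lung and fewer SCC counts than its estimated background. Its call is no support for a rise either. The further orthologs called higher numbered 21 with the 1 CPM filter, 24 with no filter, 3 with SCC 2 and SCC 5 alone and 4 with the covariate, against 8, and 7 to 14 with 1 library left out; those called lower numbered 9 with no filter and 2 with the covariate, against 5, and 3 to 7 with 1 library left out. The median of chromosome 16 members was 0.89 with the covariate, and chromosome 3 members were at 0.49. The covariate did not overlap between the groups, so values and sign changes with it cannot separate tissue from background. With 1 library left out the medians ranged from -0.43 to -0.11 on chromosome 3 and from -0.26 to 0.026 on chromosome 16, and their difference from -0.24 to -0.056. With no filter, which also changes the TMM scaling, they were -0.50 and -0.30.

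Of the 39 tested members 14 had the opposite sign with SCC 2 and SCC 5 alone, 18 with the covariate and 0 to 5 when 1 library was left out. Among the 20 members followed singly, those that changed sign had, with SCC 2 and SCC 5 alone, log2 fold changes of 0.38 (Tbl1xr1), 0.34 (Prkci), 0.50 (Fxr1), 0.10 (Dcun1d1), 0.34 (Eif4g1), -0.33 (Map3k13) and -0.072 (Fgf12). With the covariate they were 0.79 (Tbl1xr1), 0.035 (Sec62), -0.044 (Gpr160), 0.83 (Prkci), 0.33 (Gnb4), 1.59 (Fxr1), 1.13 (Dcun1d1), 1.41 (Eif4g1), -1.10 (Map3k13), 0.60 (Eif4a2), -1.78 (Fgf12), 0.62 (Pak2) and 1.15 (Tfrc). Prkci was at 0.083 with both DESeq2 settings and at 0.24 after subtraction, and Psmd2 at -0.27 with no filter. With 1 library left out, the sign changed among these 20 for Prkci without SCC 2, SCC 3 or SCC 4 (range over all 10 such fits -0.36 to 0.12), for Actl6a without SCC 5 (-0.34 to 0.75) and for Psmd2 without SCC 2, SCC 5, normal 1, normal 2, normal 4 or normal 5 (-0.19 to 0.38). None of these values passed the test. The causes were not tested.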
